A study of Bos taurus with 22 samples.

Results

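A set of 7 genes of oxidative and antimicrobial defence of the gut surface were followed in the jejunal mucosa of Holstein steers given casein, glucagon-like peptide 2 (GLP-2) or both. The set was DUOX2, DUOXA2, NOS2, PGLYRP1, PGLYRP2, LTF and LPO, out of 27570 genes in the deposited count table, and were chosen by name with earlier results of these data known. Their values across the treatments are therefore a description. PGLYRP2 was the 1 gene of the 7 that passed the test of GLP-2 against its vehicle, with a lower level after GLP-2, and that call was lost in several alternative fits. Its highest levels were in 3 control steers whose samples were also rich in RNA of B cell follicles. DUOX2 and DUOXA2 moved together from steer to steer and reached their highest levels in the same single GLP-2 steer, while LPO was at or near 0 counts throughout.

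RNA sequencing was performed on jejunal mucosa of 22 steers aged 10 to 12 months. All received 3.94 g of raw corn starch per kg of body weight per day through an abomasal infusion for 7 days, together with water or with sodium caseinate at 1.30 g per kg per day, and all were injected under the skin with vehicle (bovine serum albumin in saline, BSA) or with GLP-2 at 100 µg per kg per day. The treatments were water with vehicle (control, n = 5), water with GLP-2 (GLP-2, n = 5), casein with vehicle (casein, n = 6) and casein with GLP-2 (casein + GLP-2, n = 6). GLP-2 is a gut hormone known to stimulate growth of the intestinal mucosa, and casein is the main protein of milk. The question was how the hormone, the protein and their combination affect the mucosal transcriptome.

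The intestinal epithelium meets bacteria with several chemical defences. DUOX2 is the catalytic subunit of a dual oxidase at the apical membrane that releases hydrogen peroxide toward the lumen, and DUOXA2 is the maturation factor that it needs to leave the endoplasmic reticulum. Lactoperoxidase, encoded by LPO, uses hydrogen peroxide to oxidise thiocyanate into an antibacterial product. NOS2 is the inducible nitric oxide synthase, which makes nitric oxide from arginine. PGLYRP1 and PGLYRP2 recognise peptidoglycan of the bacterial wall. The former is bactericidal and is a known product of neutrophil granules, and the latter is an amidase that cleaves peptidoglycan. Lactoferrin, encoded by LTF, is an antibacterial protein that withholds iron.

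Positions follow the deposited annotation on the build ARS-UCD1.2, in which all 7 are protein coding. DUOX2 (ENSBTAG00000016234) lay on the plus strand of chromosome 10 from 65313524 to 65331190. Its partner DUOXA2 (ENSBTAG00000016239) lay next to it on the minus strand from 65309321 to 65313503. Their annotated starts face away from each other across a gap of 20 bases, so both genes share 1 stretch of upstream sequence. NOS2 (ENSBTAG00000006894) was on chromosome 19 from 19388579 to 19429569 on the minus strand, and LPO (ENSBTAG00000012780) on the same chromosome from 9202920 to 9247946 on the plus strand. PGLYRP1 (ENSBTAG00000002635) was on chromosome 18 from 53513706 to 53515925, minus strand, and PGLYRP2 (ENSBTAG00000012280) on chromosome 7 from 7683489 to 7688864, plus strand. LTF (ENSBTAG00000001292) was on chromosome 22 from 52952571 to 52986619, plus strand.

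Library totals ranged from 8809666 to 28447810 counts with a median of 12028560.5. Markers of epithelium such as EPCAM, KRT8 and VIL1 were present in every steer, and the 7 epithelial markers summed to between 2869 and 15792 CPM, read counts scaled to the size of each library. Samples stood apart in tissue makeup. The 7 smooth muscle markers summed to between 53.1 CPM (casein + GLP-2 replicate 4) and 1414 CPM (control replicate 5). The 10 villus enterocyte markers summed to between 1749 CPM (control replicate 5) and 97691 CPM (casein + GLP-2 replicate 1). Lymphoid tissue differed as well. The summed level of 10 B cell follicle markers, among them CR2, MS4A1 and CXCL13, was 1031 CPM in control replicate 1, 1532 in control replicate 3, 827 in control replicate 5 and 2039 in casein replicate 3, and at most 157 CPM in the other 18 steers. All 4 of these steers had received vehicle. The GLP-2 steers ranged from 20.9 to 36.0 CPM and the casein + GLP-2 steers from 18.1 to 56.6 CPM. Between GLP-2 and BSA, 9 of 9 tested follicle markers were lower, with a median log2 fold change of -4.46. In such bulk samples, fewer cells of a type and less RNA per cell cannot be told apart. Values without these 4 steers are given below beside the results that they moved most.

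The 7 genes had low median levels. Per unit of length, as the deposited FPKM values give it, the median over 22 steers was 2.51 FPKM for LTF, 1.22 for PGLYRP1, 0.901 for DUOXA2, 0.673 for NOS2, 0.549 for PGLYRP2 and 0.447 for DUOX2. It was 0 for LPO. The ranges over steers of all neighbours in this order overlapped. In the control steers alone the order of medians was different, with LTF at 6.16 FPKM, PGLYRP2 at 5.82 and NOS2 at 2.14, followed by DUOXA2 at 0.972, PGLYRP1 at 0.677 and DUOX2 at 0.585. PGLYRP2 thus stood next to LTF among controls and near the bottom over all steers. Variation between steers was wide. Over all 22 steers the coefficient of variation of CPM was 215% for DUOX2, 210% for DUOXA2, 149% for PGLYRP2, 99.7% for LTF, 94.9% for NOS2 and 57.9% for PGLYRP1.

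**Figure D1:**
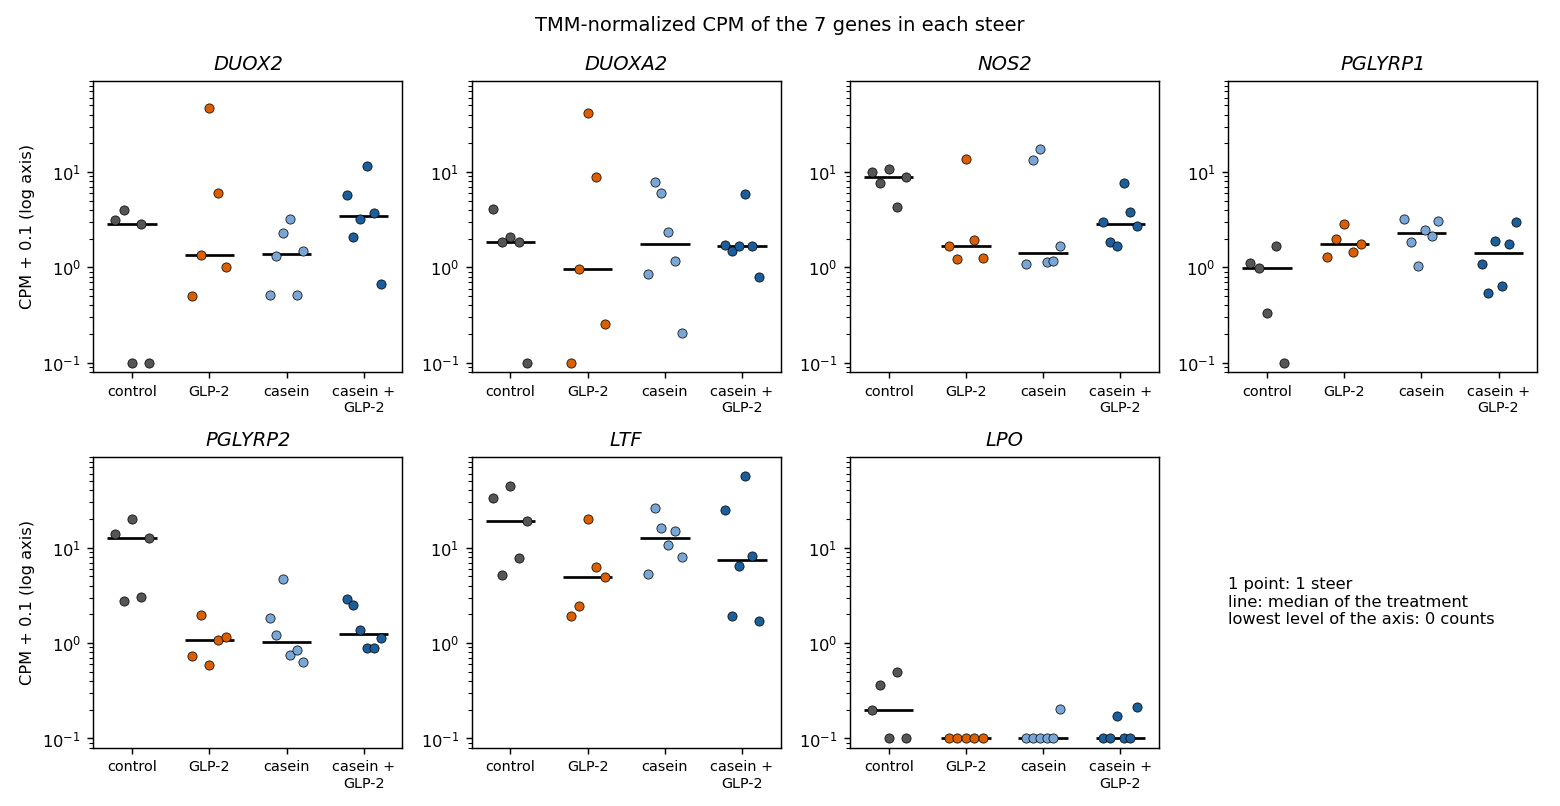
TMM-normalized CPM plus 0.1 of each of the 7 genes on a log axis, with 1 point per steer by treatment and a line at the median. PGLYRP2 is higher in all 5 control steers than in any GLP-2 steer, 1 GLP-2 steer lies far above the rest for DUOX2 and DUOXA2, and LPO is at or near the bottom of the axis in every steer.

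The comparison of injections pooled 11 GLP-2 steers, with or without casein, against 11 BSA steers. In edgeR's quasi-likelihood test, with p adjusted by Benjamini and Hochberg's method over the 13928 genes tested, 13.5% passed an adjusted p of 0.05. Of all genes tested, 5.13% passed with a higher level after GLP-2 and 8.37% with a lower level, and 34.6% had an unadjusted p under 0.05. Of the 6 defence genes tested, 1 passed, PGLYRP2, while DUOX2 and PGLYRP2 had an unadjusted p under 0.05, and LPO did not reach the minimum level for testing. Because the genes were chosen with such results in view, nothing is read from these counts.

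PGLYRP2, the peptidoglycan amidase, was at 13.8, 2.65, 19.8, 2.93 and 12.4 CPM in control replicates 1 to 5. The GLP-2 steers were at 0.638, 1.86, 0.493, 0.970 and 1.07 CPM. The casein steers ranged from 0.528 to 4.62 CPM with a median of 0.926, and the casein + GLP-2 steers from 0.788 to 2.81 CPM with a median of 1.15. Every control steer thus lay above every GLP-2 steer, whereas the casein and casein + GLP-2 steers overlapped. The 3 controls above 12 CPM were those with abundant follicle RNA, and the highest casein value was that of casein replicate 3, the other steer with abundant follicle RNA. The mean was 5.54 ± 6.64 CPM (SD, n = 11) with BSA and 1.29 ± 0.755 CPM (SD, n = 11) with GLP-2. PGLYRP2 was lower after GLP-2 by a log2 fold change of -2.09 with a standard error of 0.588 (edgeR, adjusted p = 0.0283).

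That call was kept in 19 of the 22 fits that each left out 1 steer, and lost in 3. Of 10 other fits, 4 kept it, 5 lost it with the same direction and 1 changed direction. The call was lost with infusion as a covariate, at a log2 fold change of -1.53 (edgeR, adjusted p = 0.0904), and with the blocks of body weight in the fit, at -1.71 (edgeR, adjusted p = 0.0709). With the 4 steers of abundant follicle RNA left out, a choice made after seeing the data, the log2 fold change of PGLYRP2 was -0.20 (edgeR, adjusted p = 0.844), and edgeR called 0 of 14285 genes, 1927 of which had an unadjusted p under 0.05. With the follicle score as a covariate in all 22 steers, it was 0.20 (edgeR, adjusted p = 0.995), and again 0 of 13928 genes were called in edgeR, 433 with an unadjusted p under 0.05. All 4 of those steers had received vehicle, and the follicle markers themselves were lower after GLP-2. Neither fit can therefore separate follicle RNA from the injection. Leaving out single steers gave log2 fold changes between -2.33 and -1.67, and the call was lost without control replicate 1 (edgeR, adjusted p = 0.0567), without control replicate 3 (0.0673) or without casein + GLP-2 replicate 3 (0.0518). It was kept without control replicate 5 or casein replicate 3, which were also rich in follicle RNA. Among the 18 steers with little follicle RNA, PGLYRP2 and the follicle score, with treatment means removed, gave Pearson's r = -0.0352 (permutation p = 0.891, adjusted p = 0.951 over 64 relations) and Spearman's rho = -0.187 (permutation p = 0.457, adjusted p = 0.609). Without the 2 steers farthest from the median score, r was -0.0875. As the steers fell into separate clusters, no correlation of PGLYRP2 with this score over all 22 is given.

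**Figure D2:**
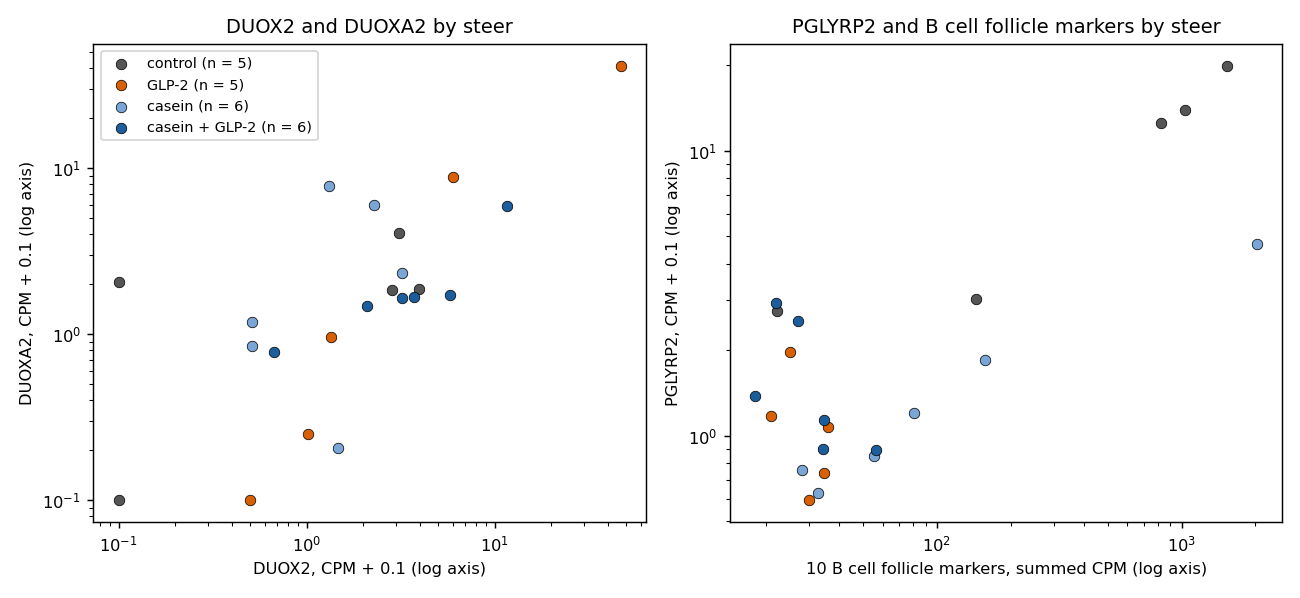
Left, DUOXA2 against DUOX2 (CPM + 0.1, log axes) in each of 22 steers, with GLP-2 replicate 4 highest for both. Right, PGLYRP2 (CPM + 0.1) against the summed CPM of 10 B cell follicle markers on log axes. The 4 steers at 827 CPM or more on the horizontal axis are 3 controls and 1 casein steer, and they hold the 4 highest PGLYRP2 values.

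DUOX2, the oxidase itself, was at 3.01, 3.88, 0, 2.76 and 0 CPM in control replicates 1 to 5. The 0 counts in control replicates 3 and 5 allow levels of up to 0.235 and 0.233 CPM, limits that cover counting error only. Of the controls, replicates 3 and 5 had the highest summed smooth muscle markers, at 676 and 1414 CPM. They also had the lowest summed epithelial markers, at 3583 and 2967 CPM. The part of tissue makeup in these 0 counts was not tested. In GLP-2 replicates 1, 3, 4, 5 and 6 DUOX2 was at 0.399, 1.24, 46.8, 5.92 and 0.915 CPM. GLP-2 replicate 4 held 1139 of the 1838 DUOX2 counts of all 22 steers. GLP-2 replicate 5 also lay above every control, and the remaining GLP-2 steers overlapped the controls. The casein steers ranged from 0.415 to 3.10 CPM (median 1.29) and the casein + GLP-2 steers from 0.573 to 11.5 CPM (median 3.37), again with overlap. Between GLP-2 and BSA the log2 fold change was 2.14 with a standard error of 0.778, which did not pass the threshold (edgeR, adjusted p = 0.0630). Without GLP-2 replicate 4 it was 1.07. It passed without control replicate 2 (edgeR, adjusted p = 0.0397) and without GLP-2 replicate 1 (edgeR, adjusted p = 0.0482), and also in the DESeq2 Wald test on all steers (adjusted p = 0.0219).

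DUOXA2, the maturation factor of DUOX2, was at 4.01, 1.76, 1.96, 1.75 and 0 CPM in the control steers. The GLP-2 steers were at 0, 0.870, 41.4, 8.73 and 0.153 CPM, in the same order of replicates as above. GLP-2 replicate 4 was again the highest and GLP-2 replicate 5 the next within that treatment, as for DUOX2, and the rest overlapped the controls. The casein steers ranged from 0.106 to 7.73 CPM (median 1.67) and the casein + GLP-2 steers from 0.688 to 5.85 CPM (median 1.57). The log2 fold change between GLP-2 and BSA was 1.22 with a standard error of 0.842 (edgeR, adjusted p = 0.306), and it was -0.15 without GLP-2 replicate 4. The direction for DUOXA2 therefore rested on that steer.

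Across the 22 steers, with treatment means removed, log2 CPM of DUOX2 and DUOXA2 correlated with Pearson's r = 0.747 (permutation p = 6e-05, adjusted p = 0.00252 over 63 relations) and Spearman's rho = 0.706 (permutation p = 0.00033, adjusted p = 0.0120). Without the 2 steers farthest from the median of DUOX2, r was 0.599. The 63 relations were the 15 pairs of the 6 tested genes and each gene against 8 marker lists, all by 2-sided permutation tests. All 22 steers entered them, with the separate cluster of steers rich in follicle RNA. Apart from PGLYRP2 with the follicle score, none was repeated without that cluster. DUOXA2 also correlated with NOS2, with r = 0.628 (permutation adjusted p = 0.0141) and rho = 0.583 (permutation adjusted p = 0.0407), and r was 0.533 without the 2 farthest steers. The paired oxidase genes thus varied together among steers of the same treatment, and the synthase gene varied with the maturation factor. For DUOX2 and NOS2, r was 0.397 (permutation adjusted p = 0.167).

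A mean score of neutrophil markers, several of them near 0 counts, moved with the oxidase genes. Single markers were not correlated with these genes. The score of 12 neutrophil markers correlated with DUOX2 (r = 0.656, permutation adjusted p = 0.00966, rho = 0.669, permutation adjusted p = 0.0191) and with DUOXA2 (r = 0.613, permutation adjusted p = 0.0186, rho = 0.599, permutation adjusted p = 0.0343). Without the 2 farthest steers these r were 0.502 and 0.592. With the same score, r was 0.391 for LTF and 0.393 for NOS2 (permutation adjusted p = 0.167 for both). Among defining neutrophil markers, MMP8 was at 0 counts in all 22 steers, S100A8 in 10, S100A9 in 4, MPO in 4 and ELANE in 3, and MMP9 had the highest level, with a median of 40.8 CPM. The summed level of the list ranged from 25.1 to 152 CPM in control, 39.7 to 143 in GLP-2, 30.0 to 157 in casein and 24.2 to 138 in casein + GLP-2. Of 6 neutrophil markers tested between GLP-2 and BSA, 0 passed in edgeR at an adjusted or an unadjusted p of 0.05, and 0 in DESeq2 or limma. DUOX2 was also lower where smooth muscle markers were higher (r = -0.702, permutation adjusted p = 0.00454, rho = -0.700, permutation adjusted p = 0.0120), with r = -0.729 without the 2 farthest steers. The part of these cells in the levels of DUOX2 and DUOXA2 was not tested.

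NOS2, the inducible nitric oxide synthase, was at 9.87, 7.59, 10.6, 4.22 and 8.69 CPM in the control steers. In the GLP-2 steers it was at 1.60, 1.12, 13.7, 1.84 and 1.14 CPM. All GLP-2 steers but replicate 4 lay below every control, and replicate 4 lay above every control. The casein steers ranged from 0.997 to 17.5 CPM with a median of 1.33, and only replicates 2 and 3, at 13.3 and 17.5 CPM, exceeded 2 CPM. The casein + GLP-2 steers ranged from 1.56 to 7.62 CPM with a median of 2.76. Of the steers not given the control treatment, GLP-2 replicate 4, casein replicates 2 and 3 and casein + GLP-2 replicate 4 lay above the lowest control. The log2 fold change between GLP-2 and BSA was -0.96 with a standard error of 0.539 (edgeR, adjusted p = 0.206), and -1.44 without GLP-2 replicate 4. With the 4 steers of high follicle RNA left out the log2 fold change was -0.24 (edgeR, adjusted p = 0.867). NOS2 and the B cell follicle score gave rho = 0.570 (permutation adjusted p = 0.0417) and r = 0.467 (permutation adjusted p = 0.121). With the score of follicle-associated epithelium, rho was 0.605 (permutation adjusted p = 0.0343) and r was 0.459 (permutation adjusted p = 0.121). Without the 2 farthest steers these r were 0.267 and 0.278.

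PGLYRP1, the bactericidal peptidoglycan recognition protein, was at 1.00, 0.882, 0.235, 1.58 and 0 CPM in the control steers. The GLP-2 steers were at 1.20, 1.91, 2.75, 1.36 and 1.68 CPM. Of the controls, only replicate 4 reached the range of the GLP-2 steers. The casein steers ranged from 0.947 to 3.16 CPM (median 2.19) and the casein + GLP-2 steers from 0.433 to 2.87 CPM (median 1.32), and the pooled means were 1.54 ± 1.04 CPM (SD, n = 11) with BSA and 1.56 ± 0.784 CPM (SD, n = 11) with GLP-2. The log2 fold change was 0.04 with a standard error of 0.468 (edgeR, adjusted p = 0.960). PGLYRP1 was higher in steers with more epithelial RNA (r = 0.693, permutation adjusted p = 0.00454, rho = 0.563, permutation adjusted p = 0.0424), with r = 0.494 without the 2 farthest steers. With the neutrophil score its r was 0.222 (permutation adjusted p = 0.449). PGLYRP1 and PGLYRP2, the paired peptidoglycan recognition genes, gave r = -0.521 (permutation adjusted p = 0.0733).

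LTF, which encodes the iron-binding lactoferrin, was at 32.9, 5.03, 44.6, 7.66 and 18.8 CPM in the control steers. In the GLP-2 steers it was at 1.84, 2.36, 20.01, 6.21 and 4.81 CPM. GLP-2 replicate 4 was the highest of that treatment, as for DUOX2, DUOXA2 and NOS2, and the treatments overlapped. The casein steers ranged from 5.23 to 26.1 CPM (median 12.6) and the casein + GLP-2 steers from 1.60 to 57.1 CPM (median 7.25), the latter led by replicate 4. The log2 fold change between GLP-2 and BSA was -0.49 with a standard error of 0.566 (edgeR, adjusted p = 0.554), and -1.15 without casein + GLP-2 replicate 4. It was -0.23 without control replicate 3, and 0.17 with the 4 steers of high follicle RNA left out. With the B cell follicle score as a covariate it was 0.44. Control replicates 1, 3 and 5, the highest controls for LTF, were those with abundant follicle RNA. LTF correlated with NOS2, with r = 0.594 (permutation adjusted p = 0.0249), rho = 0.612 (permutation adjusted p = 0.0343) and r = 0.575 without the 2 farthest steers.

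LPO had 15 counts in all 22 steers together. The control steers held 2, 3, 0, 7 and 0 counts, the GLP-2 steers 0 counts each, casein replicate 6 had 1 count, and casein + GLP-2 replicates 3 and 6 had 1 count each. Of the 15 counts, 12 were in 3 control steers. With no filter on low counts, the difference between GLP-2 and BSA did not pass (edgeR, adjusted p = 0.167), and at so few counts no fold change is given.

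**Figure D3:**
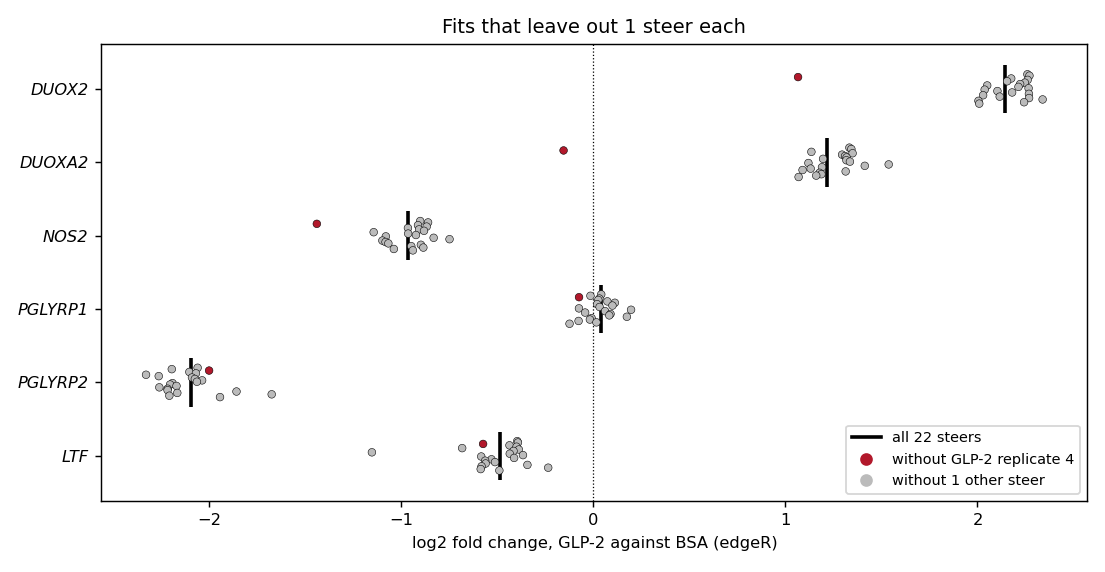
Log2 fold change between GLP-2 and BSA of the 6 tested genes in 22 fits that each leave out 1 steer (points), with the value from all steers as a black line. Without GLP-2 replicate 4 (red) the value falls from 2.14 to 1.07 for DUOX2 and from 1.22 to -0.15 for DUOXA2, while PGLYRP2 stays between -2.33 and -1.67.

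The 4 treatments were also fitted together on 15086 genes, which gave GLP-2 against control, casein + GLP-2 against casein, and their difference, the interaction. These comparisons share steers with the pooled ones. For GLP-2 against control, edgeR called 0 genes (0% of those tested) at the adjusted threshold, 2103 (13.9%) had an unadjusted p under 0.05, limma on FPKM called 0 and DESeq2 called 289. PGLYRP2 had 10.3 ± 7.41 CPM in control (SD, n = 5) and 1.01 ± 0.534 CPM in GLP-2 (SD, n = 5). Its log2 fold change was -3.34 with a standard error of 0.682 (edgeR, adjusted p = 0.113), and DESeq2 called it (adjusted p = 0.000238). In edgeR it passed without casein replicate 3 (adjusted p = 0.0166) and without control replicate 2 (adjusted p = 0.0287). With the 4 steers of high follicle RNA left out, 2 controls remained and the value was -1.46 (edgeR, adjusted p = 0.999).

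Of the other genes, DUOX2, DUOXA2, NOS2 and LTF had values that turned on single steers in this comparison. DUOX2 had a log2 fold change of 2.51 (edgeR, adjusted p = 0.339), and 0.12 without GLP-2 replicate 4. For DUOXA2 the value was 2.42, and 0.34 without that steer. NOS2 was at -1.06 with it and -2.52 without it, and LTF at -1.62 with it and -2.52 without it. With the 4 steers of high follicle RNA left out, LTF was at 0.13 and NOS2 at -0.62. PGLYRP1 was at 1.25 (edgeR, adjusted p = 0.405).

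Within casein infusion no member passed. For casein + GLP-2 against casein, edgeR called 0 of 15086 genes (0%), 3637 (24.1%) had an unadjusted p under 0.05, limma called 0 and DESeq2 called 891, none of them among the 6 genes. PGLYRP2 had a log2 fold change of -0.05 with a standard error of 0.584 (edgeR, adjusted p = 0.965), and 0.68 without casein replicate 3. DUOX2 was at 1.61 with a standard error of 1.06, and the other genes lay between -0.81 for NOS2 and 0.32 for LTF.

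The interaction asked whether the GLP-2 difference was the same with and without casein. No gene passed in edgeR (0%), 645 (4.28%) had an unadjusted p under 0.05, limma called 0 and DESeq2 called 2. PGLYRP2 had an interaction of 3.29 on the log2 scale with a standard error of 0.880 (edgeR, adjusted p = 0.996). That is, its difference between GLP-2 and vehicle was -3.34 in water-infused and -0.05 in casein-infused steers, and the test of the gap did not pass. Without the 4 steers of high follicle RNA the interaction was 2.16 (edgeR, adjusted p = 0.320). PGLYRP1 was at -1.93, DUOXA2 at -2.91 and LTF at 1.94. For DUOX2 the value was -0.90, and 1.49 without GLP-2 replicate 4. NOS2 was at 0.25, and -0.14 without casein + GLP-2 replicate 4.

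Casein was compared with water in the same pooled way. Of 14096 genes edgeR called 0 (0%), 474 (3.36%) had an unadjusted p under 0.05, limma called 0 and DESeq2 called 5, none of which was a member. PGLYRP2 averaged 5.66 ± 6.97 CPM (SD, n = 10) with water and 1.54 ± 1.20 CPM (SD, n = 12) with casein, a log2 fold change of -1.88 with a standard error of 0.608 (edgeR, p = 0.00504, adjusted p = 0.994). Without the 4 steers of high follicle RNA it was -0.24. DUOX2 was at -1.13 and DUOXA2 at -1.24, and without GLP-2 replicate 4 they were at 0.56 and 0.27. NOS2 was at -0.38, PGLYRP1 at 0.49 and LTF at 0.04.

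**Figure D4:**
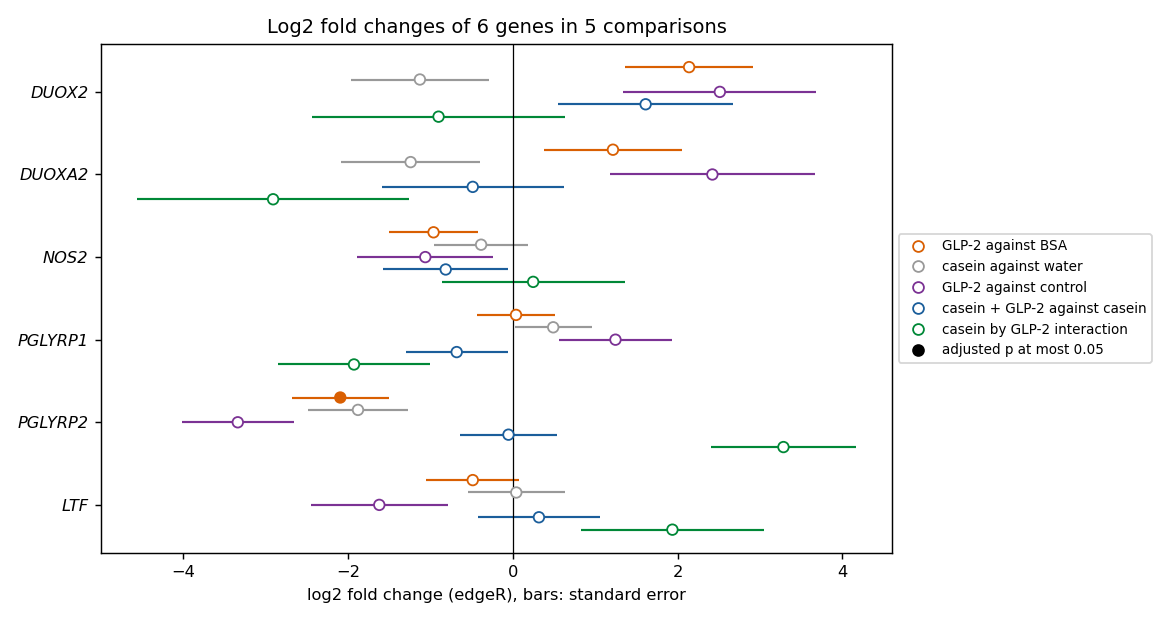
Log2 fold changes with standard errors of the 6 tested genes in 5 comparisons, all from edgeR, with a filled point for an adjusted p of at most 0.05. The 1 filled point is PGLYRP2 in GLP-2 against BSA, at -2.09.

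Further genes of the same defences were taken from 9 lists with 116 genes in the table, of which 80 were tested between GLP-2 and BSA. Of these, 7 passed (8.75%, beside 13.5% of all genes tested), 3 higher and 4 lower after GLP-2, and their median log2 fold change was -0.10. With the 4 steers of high follicle RNA left out, 0 passed in edgeR. The log2 fold changes were then -0.52 for NCF4, -0.76 for DDAH2, -2.42 for DEFB4A, -0.57 for CCL20, 0.75 for TFRC, 0.48 for BPI and 0.85 for LEAP2, with adjusted p between 0.320 (DEFB4A) and 0.511 (CCL20). Without single steers the count ranged from 1 (without control replicate 3) to 16 (without control replicate 2), and in 16 of the 22 fits it moved by more than 1.5 times.

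Of 3 tested partners of the epithelial oxidases, 0 passed in edgeR, adjusted or not, in DESeq2 or in limma. DUOX1, DUOXA1 and NOX1, the related oxidase genes of epithelia, were below the level for testing, each with a mean of at most 0.212 CPM in either injection group. The membrane subunit CYBA was at 148 ± 64.1 CPM with BSA and 129 ± 46.7 CPM with GLP-2 (SD, n = 11 each). Of 5 phagocyte oxidase genes 4 were lower and 1 of them passed, NCF4, a cytosolic subunit (log2 fold change -0.81, edgeR, adjusted p = 0.0350). The catalytic subunit CYBB was at 0.24 (edgeR, adjusted p = 0.576). Of 15 genes that remove superoxide or hydrogen peroxide, edgeR called 0, with 1 higher and 5 lower at an unadjusted p under 0.05, DESeq2 called 1 higher and 3 lower, and limma called 1 higher, CAT, which encodes catalase.

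Of 10 nitric oxide and arginine genes 1 passed, DDAH2, whose product degrades methylated arginines that inhibit nitric oxide synthases (log2 fold change -0.94, edgeR, adjusted p = 0.0395). In limma on log2(FPKM + 1) DDAH2 did not pass (adjusted p = 0.0635), and GCH1, which encodes an enzyme of tetrahydrobiopterin synthesis, was called higher (limma, adjusted p = 0.0479). Of 10 genes for sensing of peptidoglycan and bacteria, edgeR called 0, 2 were lower at an unadjusted p under 0.05, DESeq2 called 2 lower and limma 0, and NOD2, an intracellular peptidoglycan sensor, was at -0.29. In the iron list all 4 tested genes were higher and 1 passed, TFRC, the transferrin receptor (log2 fold change 0.82, edgeR, adjusted p = 0.0270). DESeq2 and limma each called 2 of the 4 higher.

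Among 16 tested antimicrobial genes, 9 were higher and 7 lower. BPI and LEAP2 passed with a higher level and DEFB4A passed with a lower level. BPI, a bactericidal protein that binds endotoxin, averaged 186 ± 76.4 CPM with BSA and 302 ± 96.7 CPM with GLP-2 (SD, n = 11 each), and its log2 fold change was 0.70 (edgeR, adjusted p = 0.0482). LEAP2, a liver-expressed antimicrobial peptide also made in the gut, had a log2 fold change of 1.29 (edgeR, adjusted p = 0.0459). DEFB4A, a beta-defensin, was at 29.0 ± 38.1 CPM with BSA and 0.915 ± 0.813 CPM with GLP-2 (SD, n = 11 each), and its log2 fold change was -5.02 (edgeR, adjusted p = 0.0189). As bovine beta-defensins form a family of similar genes, reads of DEFB4A may have been shared with others, and its value is uncertain. Of 15 cytokines and regulators 6 were lower and 1 of them passed. It was CCL20, a chemokine that is also a marker of follicle-associated epithelium (log2 fold change -1.99, edgeR, adjusted p = 0.0257). All 6 markers of that epithelium tested were lower after GLP-2, and 4 passed. With the B cell follicle score as a covariate the log2 fold change was -0.32 for CCL20 and -1.09 for DEFB4A (edgeR, adjusted p = 0.995 for both). CCL20 did not pass in limma on log2(FPKM + 1) (adjusted p = 0.0789).

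**Figure D5:**
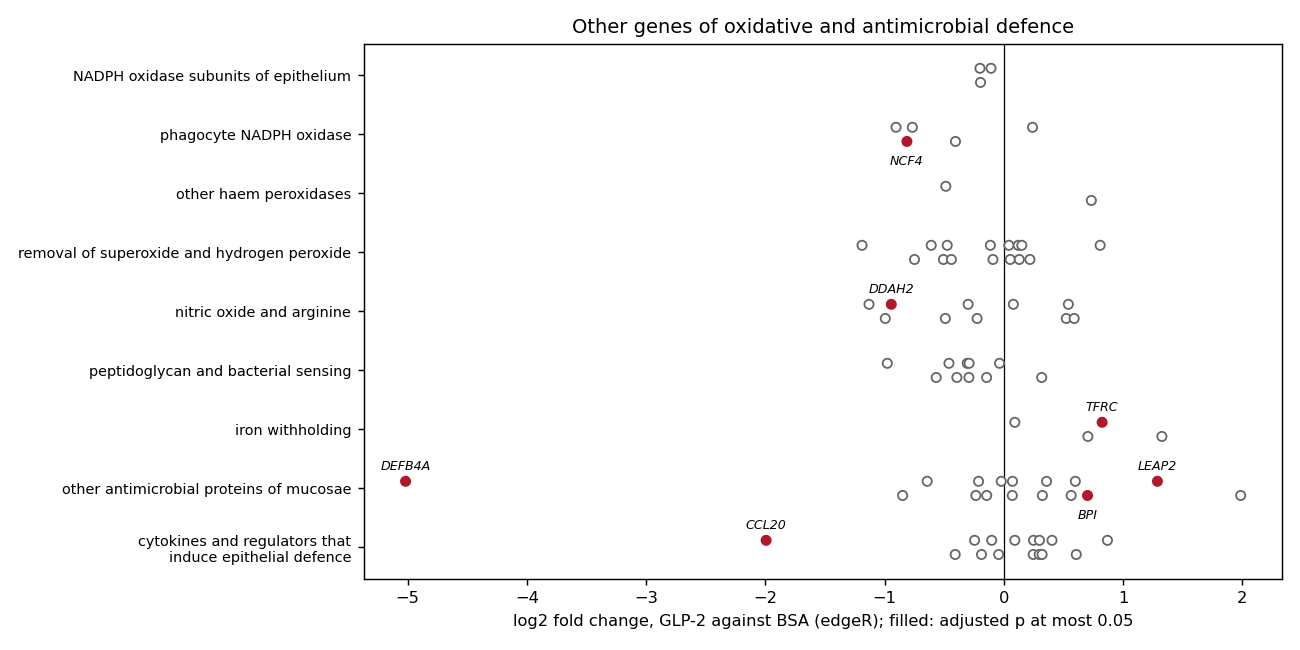
Log2 fold change between GLP-2 and BSA of the 80 tested genes in 9 lists of defence genes, with 1 point per gene and filled points where edgeR gave an adjusted p up to 0.05. The 7 filled points are NCF4, DDAH2, DEFB4A and CCL20, lower, and TFRC, BPI and LEAP2, higher.

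The genes closest in pattern to each member were sought over all tested genes with a symbol, the 7 members themselves left out, by Pearson's r of log2 CPM across the 22 steers, treatment means removed, as a description. For PGLYRP2 they were SPIB, a transcription factor and marker of follicle-associated epithelium, LIPC and SLC15A4. As the 4 steers of high follicle RNA form a cluster of their own, only r among the other 18 steers is given, at 0.459 for SPIB, 0.442 for LIPC and 0.522 for SLC15A4. S100A2 was closest to DUOXA2 (0.790), before SDS (0.707) and C10orf99 (0.690), and it was also among the 3 genes closest to DUOX2 (0.724), with HTATSF1 (0.745) and TTC13 (0.724). NOS2 was nearest to FAM3B (0.790), TRAF3IP3 (0.758) and ARHGDIB (0.757), PGLYRP1 to ZDHHC7 (0.779), FBXO36 (0.765) and DPM1 (0.763), and LTF to PGGHG (0.775), DPH7 (0.749) and SDS (0.701). Among the 18 steers, r with the same genes in the same order was 0.635, 0.660 and 0.450 for PGLYRP1. It was 0.796, 0.664 and 0.743 for NOS2 and 0.795, 0.789 and 0.709 for LTF. For DUOX2 and DUOXA2 the values then lay between 0.592 and 0.862. All values come from the same libraries, so depth and tissue makeup are shared between the genes compared.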

How the data were processed

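RNA was sequenced from jejunal mucosa of 22 steers in strand-specific libraries of polyadenylated RNA. According to the submitters' processing notes, HISAT2 2.0.5, StringTie 1.3.3b, featureCounts 1.5.0-p3 and DESeq2 1.20 were used with the build ARS-UCD1.2. The strand setting of the counting is not given in the sources used here. The authors deposited raw counts per gene, whole numbers without normalization, and FPKM, which per gene equalled counts by length and library total times a constant for each library between 0.798 and 1.37. The FPKM values served for levels between genes and as an alternative.

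In R 4.3.3, genes were filtered with filterByExpr (minimum count 10), normalized by TMM and tested with edgeR 4.0.16 (quasi-likelihood, Benjamini-Hochberg over all genes tested, threshold 0.05). CPM are TMM-normalized, and log2 CPM used a prior count of 2. Injections and infusions were compared in pooled groups, as in the study, and the 4 treatments in 1 model. The deposited data held no GLP-2 replicate 2, so the GLP-2 and water pools were smaller than in the study. A control steer was also absent, which the study did not sequence because of low RNA integrity. Alternatives were other normalizations, no filter, limma 3.58.1 on log2(FPKM + 1) or log2(FPKM + 0.1), DESeq2 1.42.0, replicate blocks, covariates, fits restricted to a pair of treatments, and omission of 1 steer at a time. Leaving out the 4 steers with high follicle RNA was added after seeing the data. A marker score is the mean log2 CPM of a list, and correlations used 100000 permutations.

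The members and lists were chosen with earlier results of these data known. Genes named beside the 7 members are those past the threshold in each list, up to 3, the 3 closest in pattern, and cell type markers; a few further list genes (DUOX1, DUOXA1, NOX1, CYBA, CYBB, CAT, NOD2, GCH1) were named after their values were seen. Steers came from body weight blocks, within which the study assigned treatments at random, and each replicate number is a block. Libraries of a treatment were not identical. Simulated data had 200 genes changed by a log2 fold of 2. The test between GLP-2 and BSA recovered 161 of 183 tested changed genes with 8 false calls. Between casein and water it recovered 177 of 190 with 11 false calls, and for the interaction 109 of 200 with 3. The simulated spread was that within treatments, with no effect of the other factor, so these shares may not hold for the 7 genes. Sequences, and motifs in promoters, were not used here.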

Additional observations from a re-analysis of the deposited data

Results flagged for a closer look

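In each treatment, the highest and lowest steer of the 6 tested genes were checked on log2 CPM with Dixon's ratio, the gap to the nearest steer divided by the whole range. Of 24 groups, 2 held a steer beyond the 95% critical value, and chance alone flags about 1 in 20 groups. NOS2 in GLP-2 replicate 4 was at 13.7 CPM (333 counts), far above the other GLP-2 steers, with a ratio of 0.810 against a critical value of 0.71. DUOXA2 in control replicate 5 was at 0.0 CPM (0 counts), below the other controls, with a ratio of 0.767. This check covered single steers within a treatment and not differences between groups.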

How the results depend on the processing

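Of 930 recomputed log2 fold changes of the 6 genes, 864 kept their direction and their side of the threshold, 52 changed direction, 8 lost the call and 6 gained it. Between GLP-2 and BSA, the call of PGLYRP2 was lost with limma on log2(FPKM + 1) (adjusted p = 0.0929) or log2(FPKM + 0.1) (0.112) and with infusion as a covariate (0.0904), and the members called were then 0, as with the follicle score as a covariate or without the 4 steers of high follicle RNA, and 2 in DESeq2. Of other defence genes, 7 passed, and 16 did in DESeq2, 0 with the follicle score and 0 without those 4 steers. Between GLP-2 and control, 1 member passed in DESeq2 and 0 in edgeR. Over all genes, edgeR called 1881 between GLP-2 and BSA and DESeq2 2999.

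The replicate numbers are blocks of body weight. According to the study, treatments were assigned at random within each block. The main fits held no block term. Of 30 pairs of steers of the same block, 13 had a correlation of deviations over 0.1 (mean 0.0331, lowest -0.464), and 6 of 22 steers correlated best with their own block. These correlations cannot show that the block may be left out, so the fit with it is given here. With the replicate block in the fit, 0 members, 1 other defence gene and 689 genes in all passed between GLP-2 and BSA, and PGLYRP2 was at -1.71 (edgeR, adjusted p = 0.0709).

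Directions changed as follows, none of them for a value past the threshold except PGLYRP2 between GLP-2 and BSA, which was 0.20 with the follicle score. In that comparison PGLYRP1 was at -0.014 with upper quartile normalization, -0.030 with the block, -0.67 with the follicle score and -0.43 without the 4 steers, and LTF at 0.44 with the score and 0.17 without the 4 steers. Between casein and water, DUOX2 was at 0.56 in DESeq2 and 0.068 with limma (0.1), and DUOXA2 at 0.28 and 0.18. Between casein + GLP-2 and casein, DUOXA2 was at 0.039 with limma (0.1), PGLYRP2 at 0.27 with the block, 0.037 and 0.17 with limma (1 and 0.1) and 0.70 without the 4 steers, and LTF at -0.45 with the block and -0.24 and -0.53 with limma. Without the 4 steers LTF was at 0.13 between GLP-2 and control, and the interaction of DUOX2 at 0.094. The causes were not tested.

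Leaving out 1 steer at a time gave 0 to 2 members called and 1 to 16 other defence genes between GLP-2 and BSA, and 0 to 1 member between GLP-2 and control. Between GLP-2 and BSA the log2 fold change ranged from -0.15 to 1.54 for DUOXA2 and from -0.12 to 0.20 for PGLYRP1. Between casein and water it ranged from -1.56 to 0.56 for DUOX2, -1.53 to 0.27 for DUOXA2 and -0.36 to 0.44 for LTF. Between casein + GLP-2 and casein the ranges were -1.10 to 0.049 for DUOXA2, -0.32 to 0.68 for PGLYRP2 and -0.59 to 0.61 for LTF. The interaction ranged from -1.41 to 1.49 for DUOX2 and from -0.14 to 1.71 for NOS2. Depth limits LPO and the steers at 0 counts.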

Other observations

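Outside the comparisons above, several genes of the antimicrobial list were far more abundant than any of the 7 genes without passing the test between GLP-2 and BSA. EBD and REG3G were among them. EBD, an enteric beta-defensin, was at 333 ± 414 CPM with BSA and 188 ± 250 CPM with GLP-2 (SD, n = 11 each, edgeR, adjusted p = 0.398). REG3G, a lectin that binds peptidoglycan, was at 269 ± 434 CPM with BSA and 405 ± 521 CPM with GLP-2 (SD, n = 11 each, edgeR, adjusted p = 0.558). Their spread between steers exceeded their mean in both injection groups. PIGR, which carries immunoglobulin A across the epithelium, was at 8175 ± 3717 CPM with BSA and 7411 ± 2694 CPM with GLP-2 (SD, n = 11 each, edgeR, adjusted p = 0.734). These 3 genes were chosen after their values were seen.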
